A study of Mus musculus with 10 samples.

Results

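The cardiac natriuretic peptide genes Nppa and Nppb, the peptide-modifying enzymes Corin and Pam, and the natriuretic peptide receptors Npr1, Npr2 and Npr3 were followed in the right ventricle of 10 mice. All probe sets annotated with 1 of these 7 gene symbols were taken, which gave 9 probe sets of 22690 on the array. Nppa, Nppb, Pam, Corin, Npr1 and Npr2 had 1 probe set each and Npr3 had 3. Of the 9 probe sets, 6 were bright enough to be tested, and the probe set of Npr1 and 2 of the 3 for Npr3 were not. The genes were chosen by their signals in trained against untrained mice, with Nppa and Pam leading, so their values in that contrast are given as a description without a test. Comparisons by genotype and by sex within the trained mice were not used in the choice.

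All mice were of strain 129SV. The plakoglobin (+/-) mice carry 1 intact copy of Jup, which encodes plakoglobin, a desmosomal adhesion protein of the intercalated disc, and the other mice were wildtype. The trained groups were 4 wildtype and 4 plakoglobin (+/-) mice of 6 months, with 2 males and 2 females in each. They swam 6 times a week in water at 35 °C, for 5 min at the start and 90 min at the end of the schedule. The untrained groups were 1 wildtype and 1 plakoglobin (+/-) female of 10 months. Training and age therefore cannot be told apart, and no untrained male was measured. The study set out to compare the response to training between the genotypes.

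Nppa encodes the precursor of atrial natriuretic peptide and Nppb that of B-type natriuretic peptide, hormones that promote sodium excretion and relax vessels. Nppa is strongly expressed in atria and in the fetal ventricle, falls in the ventricle after birth, and is a classical marker of cardiac growth and load. Corin is a membrane protease of cardiomyocytes that cleaves the Nppa precursor. Pam encodes peptidylglycine alpha-amidating monooxygenase, which amidates the C-terminus of many peptide hormones and is an abundant membrane protein of atrial secretory granules. Npr1 and Npr2 are receptors that make cGMP when they bind ligand. Npr1 binds the products of Nppa and Nppb, Npr2 prefers C-type natriuretic peptide, and Npr3 has no cyclase domain and clears the peptides from the circulation.

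The 10 arrays had median signals of 897.9 to 1149.6, and the correlation of log2 signals between any pair of arrays was 0.842 to 0.944. The GAPDH control probe sets compare the 3′ end of the transcript with its 5′ end, which reflects RNA integrity and cDNA length, and their ratio was 17.8 in trained wildtype mouse 2, 2.98 in trained plakoglobin (+/-) mouse 1 and 2.50 in trained wildtype mouse 1. It was 0.849 to 1.02 on the other 7 arrays, and the member differences are also given with those 3 arrays left out. The actin ratio was also raised in the latter pair, at 2.65 and 3.05. Signals of Jup did not separate the genotype labels. They were 1992 to 3520 in the trained plakoglobin (+/-) mice and 2928 to 4322 in the trained wildtype mice, and the untrained plakoglobin (+/-) mouse lay above the untrained wildtype mouse (3157 and 2387).

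The start-proximal promoters of the peptide genes and of Pam are shown because Nppa and Pam were the members that differed most between trained and untrained mice while Nppb, the direct neighbour of Nppa with 0 annotated genes between them on chromosome 4, was not raised. The sequences are those of RefSeq, build GRCm38.p6, of the reference strain and not of 129SV, and cover the 250 bases before the annotated start, 5′ to 3′ on the gene's strand. All 7 genes matched an entry. The windows are chr4:148000472-148000721 (plus strand) for Nppa, chr4:147985650-147985899 (plus strand) for Nppb and chr1:98095647-98095896 (minus strand) for Pam. Of the 2 starts listed for Pam, the first was used. Capitals mark matches on either strand to 4 motifs. The TATA box was searched as TATAAA. The site of GATA factors was searched as GATAA. The site of NKX2 factors was searched as AAGTG. The MCAT site, which TEAD factors bind, was searched as CATTCC.
Nppa: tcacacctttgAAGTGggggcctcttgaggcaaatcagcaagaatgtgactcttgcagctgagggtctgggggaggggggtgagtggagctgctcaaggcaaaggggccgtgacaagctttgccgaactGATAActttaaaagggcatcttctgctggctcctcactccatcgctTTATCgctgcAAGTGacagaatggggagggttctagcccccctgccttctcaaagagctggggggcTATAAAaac
Nppb: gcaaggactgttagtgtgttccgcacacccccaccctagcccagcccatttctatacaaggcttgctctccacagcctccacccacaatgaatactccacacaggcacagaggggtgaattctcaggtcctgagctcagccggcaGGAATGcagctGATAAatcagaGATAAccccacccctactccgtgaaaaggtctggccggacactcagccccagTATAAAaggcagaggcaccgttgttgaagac
Pam: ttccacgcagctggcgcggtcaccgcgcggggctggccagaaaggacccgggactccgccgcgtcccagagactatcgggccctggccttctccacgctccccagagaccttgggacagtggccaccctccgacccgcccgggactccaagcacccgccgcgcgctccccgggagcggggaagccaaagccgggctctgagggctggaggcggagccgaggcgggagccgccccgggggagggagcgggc

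The Nppa window held 1 TATA box, 2 GATA sites and 2 NKX2 sites, and the Nppb window held 1 TATA box, 2 GATA sites and 1 MCAT site. None of the marked matches overlapped. The TATAAA match lay 9 to 4 bases before the annotated start in Nppa and 31 to 26 bases before it in Nppb. All distances hang on where that start is annotated. The 2 GATA sites of Nppb lay 94 to 90 and 83 to 79 bases before the start, and those of Nppa 121 to 117 and, on the opposite strand, 75 to 71 bases before it. Pam held none of the 4 motifs, and neither did Corin, Npr1, Npr2 or Npr3 in their windows. Over the 32851 windows of the same length, 12.4% held TATAAA, 22.6% GATAA, 40.7% AAGTG and 12.6% CATTCC. The Pam window had a GC content of 75.6% and 28 CpG dinucleotides, against 54.4% and 4 for Nppa, 54.8% and 5 for Nppb, and medians of 52.4% and 6 over all windows. A match describes these letters only and no binding was measured.

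Nppa was the peptide gene that stood far apart in the trained mice. Its signal, in the authors' scaled array units, was 4350.5 in the untrained wildtype mouse and 3966 in the untrained plakoglobin (+/-) mouse. In trained wildtype mice 1 to 4 it was 31919, 22146, 29442 and 34501. In trained plakoglobin (+/-) mice 1 to 4 it was 18636, 24965, 19561 and 32030. All 8 trained mice were above both untrained mice, and the lowest trained signal was several times the higher untrained one. The mean was 29502 ± 5321 (SD, n = 4) in trained wildtype and 23798 ± 6157 (SD, n = 4) in trained plakoglobin (+/-) mice, which were 6.78 and 6.00 times the untrained mouse of the same genotype. The fitted difference was 2.66 on the log2 scale (SE 0.26), with terms for genotype and sex. Because both untrained mice were females, that estimate compares the 4 trained with the 2 untrained females, and a fit of the females alone gave the same 2.66. The ratio of geometric means over all 8 trained mice was 6.26.

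**Figure D1:**
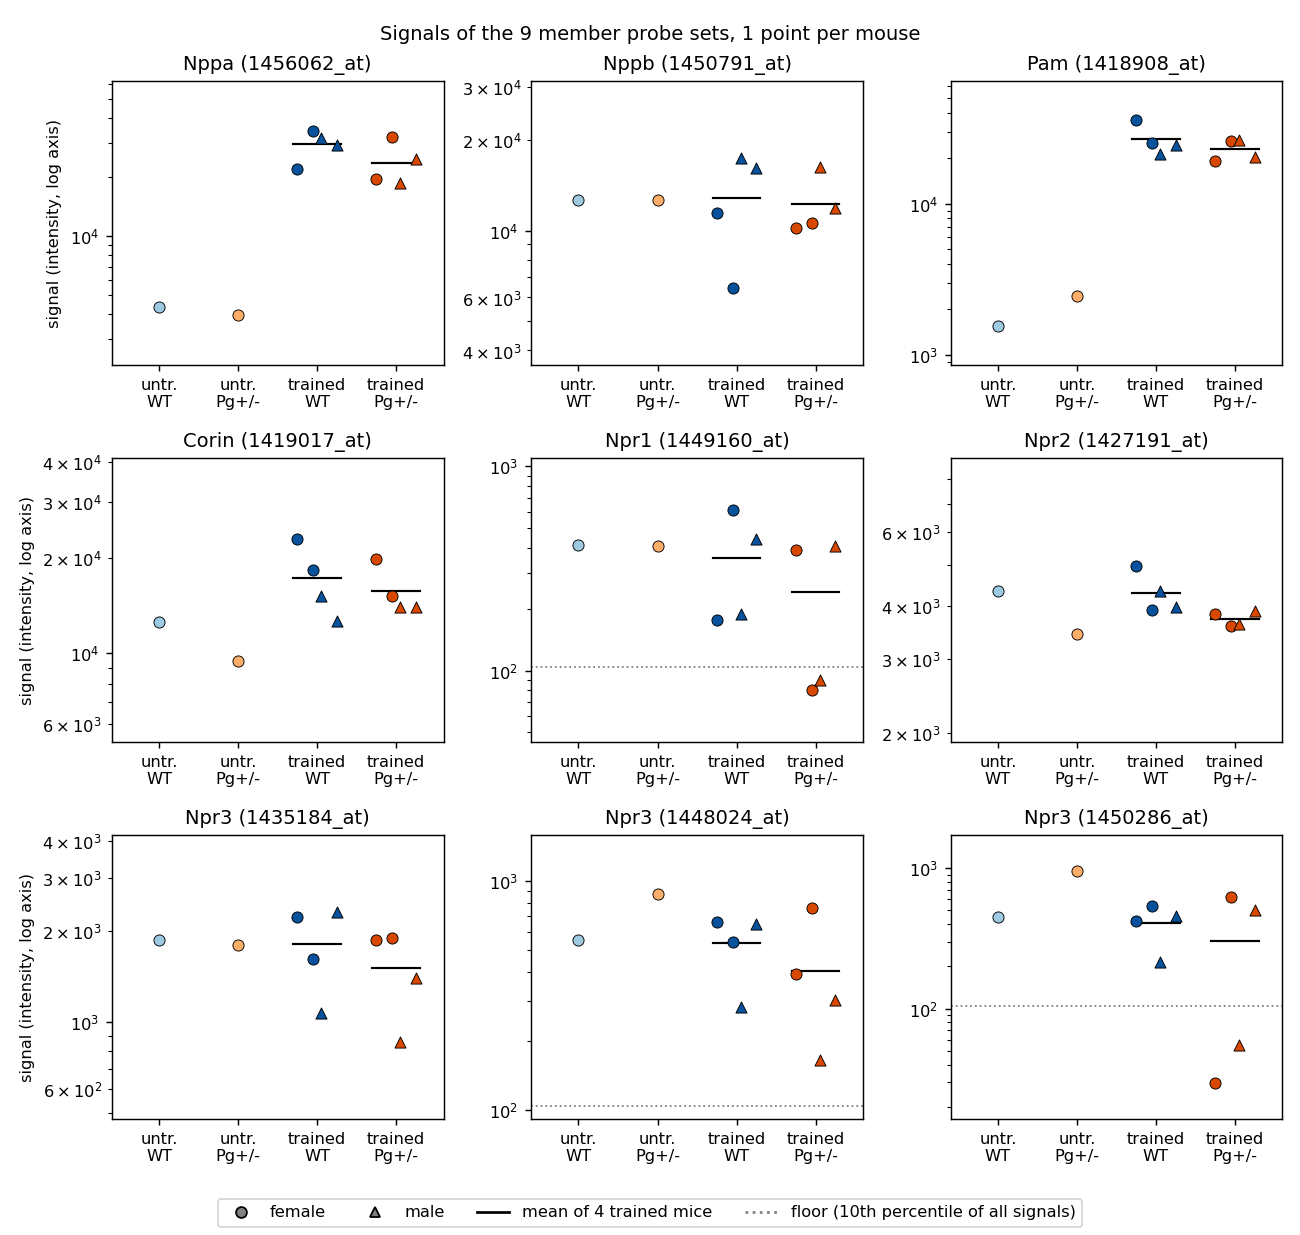
Signals of the 9 member probe sets (vertical log axes, array intensity units) in each mouse, by group; circles are females, triangles males, bars the mean of 4 trained mice, and the dotted line the floor of 104. WT is wildtype and Pg+/- is plakoglobin (+/-). Nppa, Pam and Corin lie above both untrained mice in all 8 trained mice, whereas Nppb and the receptors overlap with them.

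Nppb, which is expressed beside Nppa in the loaded heart, did not share that pattern. Its signal was 12676 and 12610 in the untrained wildtype and plakoglobin (+/-) mice. In trained wildtype mice 1 to 4 it was 17439, 11463, 16097 and 6444, and in trained plakoglobin (+/-) mice 1 to 4 it was 16249, 11906, 10208 and 10562. The trained mice lay on both sides of the untrained pair, 3 above both and 5 below both. The fitted difference was -0.42 on the log2 scale (SE 0.25) with the sex term and -0.07 (SE 0.32) without it. It was -0.21 without trained wildtype mouse 4, the lowest, and -0.54 with the 3 arrays of raised GAPDH ratio left out. The trained mean was 1.01 times the untrained signal in wildtype and 0.970 times in plakoglobin (+/-) mice. Across the 8 trained mice the log2 signals of Nppa and Nppb had a Pearson r of -0.249, given as a description, and 6094 of 8364 other genes had a higher r with Nppa.

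Pam showed the larger difference of the enzyme genes and of all 9 probe sets. Its signal was 1537.7 in the untrained wildtype and 2432.8 in the untrained plakoglobin (+/-) mouse. In trained wildtype mice 1 to 4 it was 21202, 35991, 24400 and 25340, and in trained plakoglobin (+/-) mice 1 to 4 it was 26201, 20366, 19259 and 26000. Every trained mouse was above both untrained mice, and trained wildtype mouse 2, the array with the highest GAPDH ratio, was the highest. The fitted difference was 3.75 on the log2 scale (SE 0.27), the ratio of geometric means was 12.6, and the difference was 3.58 (SE 0.22) when the 3 arrays with a raised GAPDH ratio were left out. The untrained pair decided part of its size: it was 3.32 without the untrained wildtype mouse and 4.18 without the untrained plakoglobin (+/-) mouse. The trained mean was 17.4 times the untrained signal in wildtype and 9.44 times in plakoglobin (+/-) mice. Nppa, at 2.79 (SE 0.21) without the 3 arrays, moved less with the choice of untrained mouse, from 2.57 to 2.76.

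Corin, the protease of the Nppa precursor, differed by less and in the same direction as its substrate. Its signal was 12552 and 9459 in the untrained wildtype and plakoglobin (+/-) mice. In trained wildtype mice 1 to 4 it was 15112, 22872, 12609 and 18338, and in trained plakoglobin (+/-) mice 1 to 4 it was 14027, 13976, 19749 and 15106. All 8 trained mice were above both untrained mice, but the lowest trained mouse, a wildtype male, was close to the untrained wildtype mouse. The fitted difference was 0.79 on the log2 scale (SE 0.20) with the sex term, 0.57 (SE 0.23) without it, and 0.71 with the 3 arrays of raised GAPDH ratio left out. Of all 13576 tested probe sets, 4.63% had all 8 trained mice above both untrained mice, 4.61% had all 8 below and 9.24% had either. Of the 6 tested members, 3 were in the first class (Nppa, Pam and Corin) and 0 in the second, which the choice of members bears on.

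**Figure D2:**
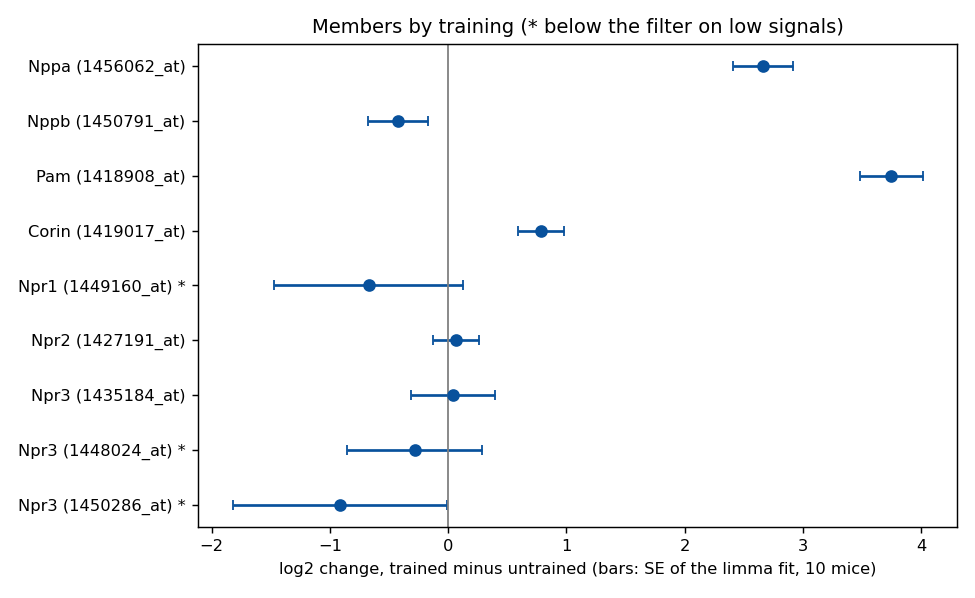
Difference of trained from untrained mice for the 9 member probe sets on the log2 scale (horizontal axis; points are estimates and bars 1 SE of the limma fit over 10 mice; asterisks mark the 3 probe sets below the brightness filter). Pam at 3.75 and Nppa at 2.66 lie far to the right of Corin at 0.79, while Npr2 at 0.07 lies near 0 and Nppb is at -0.42.

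Trained and untrained mice overlapped in the receptor genes. Npr2, the receptor for C-type natriuretic peptide, had signals of 4337 and 3430 in the untrained wildtype and plakoglobin (+/-) mice. In trained wildtype mice 1 to 4 it was 4340, 4991, 3992 and 3921, and in trained plakoglobin (+/-) mice 1 to 4 it was 3624, 3889, 3826 and 3592. The trained values lay on both sides of the untrained wildtype mouse and above the untrained plakoglobin (+/-) mouse. The fitted difference was 0.07 on the log2 scale (SE 0.20), and -0.0060 with the 3 arrays of raised GAPDH ratio left out.

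Npr3, the clearance receptor, was measured by 3 probe sets of unequal brightness. The brightest, 1435184_at, had signals of 1875 and 1800 in the untrained wildtype and plakoglobin (+/-) mice. It ranged from 1068 to 2319 in the trained wildtype mice and from 857.6 to 1895 in the trained plakoglobin (+/-) mice, and the untrained values lay inside both ranges. Its fitted difference was 0.04 on the log2 scale with the sex term, -0.22 (SE 0.36) without it, and -0.012 with the 3 arrays of raised GAPDH ratio left out. The other probe sets were below the brightness filter. For 1448024_at the untrained wildtype and plakoglobin (+/-) mice had 552.1 and 880.6, with 283 to 663.6 in trained wildtype and 165 to 763.1 in trained plakoglobin (+/-) mice. For 1450286_at they had 450.6 and 955.1, with 214 to 536.6 and 29.5 to 619.6. In both dimmer probe sets the untrained plakoglobin (+/-) mouse was above all 8 trained mice, which was not so for the brightest, so the probe sets disagreed.

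Npr1, the receptor that binds the products of Nppa and Nppb, was near the floor in part of the mice. Its signal was 410.5 and 409.6 in the untrained wildtype and plakoglobin (+/-) mice. In trained wildtype mice 1 to 4 it was 189, 177.5, 443.1 and 610.6, and in trained plakoglobin (+/-) mice 1 to 4 it was 90, 406.5, 389 and 80.5. The last group held the 2 of 8 trained mice that were under the floor of 104 (the 10th percentile of all signals), and no order among values under it is read. The trained mice lay on both sides of the untrained pair. The probe set was not bright enough to be tested with limma.

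No difference in any of the 6 tested members between the genotypes passed the test in trained mice. The differences, plakoglobin (+/-) minus wildtype on the log2 scale, were -0.33 for Nppa (95% interval -0.81 to 0.16), 0.00 for Nppb (-0.49 to 0.50), -0.21 for Pam (-0.64 to 0.23), -0.11 for Corin (-0.48 to 0.26), -0.20 for Npr2 (-0.58 to 0.17) and -0.27 for Npr3 1435184_at (-0.94 to 0.41). Each had a limma adjusted p of 1, and 0 of 13576 probe sets (0%) were called. At an unadjusted p under 0.05, 0 of the 6 members and 273 of all probe sets (2.01%) passed. With the 3 arrays of raised GAPDH ratio left out, the differences were -0.37 for Nppa, 0.21 for Nppb, -0.21 for Pam, 0.014 for Corin, -0.06 for Npr2 and -0.18 for Npr3 1435184_at. The difference of Pam was -0.058 without trained wildtype mouse 2, and that of Corin was -0.0087 without trained plakoglobin (+/-) mouse 4. These intervals leave room for differences of up to 0.81 in Nppa, so a p that missed the threshold does not show equal levels.

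Npr2 was the member whose 2 trained genotypes did not overlap. Its mean was 4311 ± 489 (SD, n = 4) in wildtype and 3733 ± 147 (SD, n = 4) in plakoglobin (+/-) mice, and 1.6% of all tested probe sets had such a separation in either direction. Its difference of -0.20 was -0.06 with the 3 arrays left out, as given above. For the members under the brightness filter, an exact two-sided permutation test over the 70 labelings of 8 trained mice can give p = 0.0286 at the least. This exact test gave p = 0.457 for Npr1, 0.371 for Npr3 1448024_at and 0.400 for Npr3 1450286_at, none adjusted for the 6 such tests run.

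The genotypes were also compared in their difference of trained from untrained mice, with each untrained group being 1 mouse assumed to vary like the trained ones. For Pam, plakoglobin (+/-) minus wildtype was -0.87 on the log2 scale (SE 0.44, 95% interval -1.85 to 0.12, limma adjusted p = 1). The others were -0.19 for Nppa (SE 0.49), 0.01 for Nppb (SE 0.50), 0.30 for Corin (SE 0.37), 0.14 for Npr2 (SE 0.37) and -0.21 for Npr3 1435184_at (SE 0.68). Of all probe sets, 0% were called and 3.2% had an unadjusted p under 0.05. No interaction of a member passed the threshold.

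Within the trained mice, the ligand gene Nppb and the protease gene Corin had the widest sex differences relative to their errors, in opposite directions. Nppb was 15423 ± 2420 (SD, n = 4) in males and 9669 ± 2214 (SD, n = 4) in females, and 4 of 4 males were above all 4 females. The difference, male minus female, was 0.69 on the log2 scale (SE 0.22, 95% interval 0.20 to 1.19), and it failed the correction over all probe sets (limma adjusted p = 0.509). Of all tested probe sets, 2.98% had all males above all females, 2.91% had all males below and 5.89% had either. Corin was 13931 ± 1025 (SD, n = 4) in males and 19016 ± 3223 (SD, n = 4) in females. Its difference was -0.44 (SE 0.17, 95% interval -0.81 to -0.07, limma adjusted p = 0.509), with 3 of 4 males below all females.

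Both genes thus missed the threshold after correction: 0 of 6 members were called, beside 7 of all probe sets (0.0516%), 6 higher in males (0.0442%) and 1 lower (0.00737%). At an unadjusted p under 0.05, 2 of the 6 members passed, beside 8.82% of all probe sets. In Nppb both untrained females were above all 4 trained females and above 1 of the 4 trained males. The other sex differences were -0.03 for Nppa (SE 0.22), -0.18 for Pam (SE 0.19), -0.03 for Npr2 (SE 0.17) and -0.53 for Npr3 1435184_at (SE 0.30). With the 3 arrays of raised GAPDH ratio left out, they were -0.10, -0.10, 0.051 and -0.02, against 0.68 for Nppb and -0.41 for Corin. Of the 3 arrays, 2 were the males with the lowest signals of Npr3 1435184_at. In the exact permutation test between the sexes, p was 1 for Npr1, 0.0857 for Npr3 1448024_at and 0.657 for Npr3 1450286_at.

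**Figure D3:**
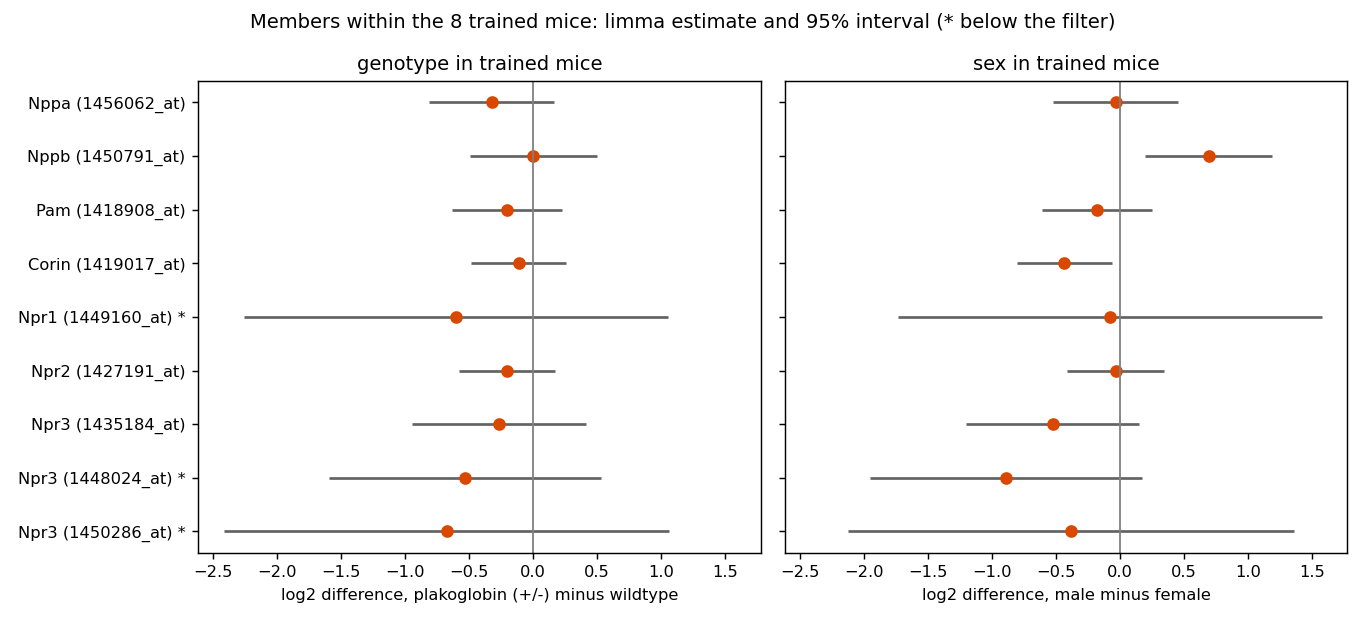
Differences among the 8 trained mice on the log2 scale (horizontal axes) for the 9 member probe sets, by genotype (left, plakoglobin (+/-) minus wildtype) and by sex (right, male minus female); points are limma estimates, bars 95% intervals, and asterisks mark the 3 probe sets below the brightness filter. All genotype intervals include 0, and the sex intervals of Nppb (0.20 to 1.19) and Corin (-0.81 to -0.07) do not, before correction over all probe sets.

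Nppa and Pam are both abundant in atrial muscle, and atrial markers were therefore read in the same mice. Of 11 listed atrial genes, 10 were on the array and 5 were bright enough to test, of which 2 were higher and 3 lower in trained mice and 0 were called (85 of all probe sets, or 0.626%, were called). Their median difference was -0.03 on the log2 scale against -0.00 over all tested probe sets. Kcna5 at 0.58 (SE 0.32) and Upk3b at -0.78 (SE 0.47) had the largest changes of the tested atrial genes. For Kcna5, 6 of 8 trained mice lay above both untrained mice, and for Upk3b 6 of 8 lay below both. The summed signal of all 10 atrial genes on the array was 9230 to 14040 in the trained mice and 9273 and 13238 in the untrained pair, so the groups overlapped. That sum is linear and weighted to bright genes such as Kcnj3. Myl7, the atrial regulatory light chain and a defining marker, was near background at 40 to 729.1 in trained mice and 122.5 and 324 in untrained mice, and Sln, atrial sarcolipin, was 68.5 to 700.1 against 126 and 199. The defining markers Myl4 (the atrial essential light chain, 1666 to 3234 against 1448 and 1905) and Bmp10 (587.6 to 1870 against 742.6 and 1561) also overlapped.

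The defining ventricular markers Myl2 and Irx4 were above the floor in every mouse. Myl2, the ventricular regulatory light chain, was 222537 to 298801 in trained mice. It was 322871 in the untrained wildtype and 406537 in the untrained plakoglobin (+/-) mouse. All 8 trained mice were lower, as in 4.61% of all tested probe sets. The fitted difference was -0.38 (SE 0.15, limma adjusted p = 0.470). It was -0.58 without the untrained wildtype and -0.18 without the untrained plakoglobin (+/-) mouse. The ventricular factor Irx4 was 1605 to 2100 against 1672 and 2210. Of the 8 genes listed for ventricular myocytes, only Myl2 and Irx4 were taken as defining. Hey2 and Kcnj2 were under the brightness filter, and Kcnj2 was under the floor in 5 of 8 trained and both untrained mice. Of the 6 tested, 0 were higher and 6 lower, and 0 were called, with a median of -0.15. Irx4 at -0.01 (SE 0.25) and Myh6 at -0.03 (SE 0.15) were near 0. The tested probe sets of Myl3 were at -0.31, -0.49 and 0.33, so they disagreed in direction. The endothelial list was lower in 7 of 8 genes (median -0.29, 0 called), the fibroblast list in 5 of 6 (median -0.20, 0 called), and the smooth muscle list in 2 of 4. Summed endothelial signal was 24619 to 29469 in trained and 28495 and 32631 in untrained mice. The part of these cell markers in the member differences was not tested, and in bulk tissue fewer cells of a type and less RNA per cell cannot be told apart.

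**Figure D4:**
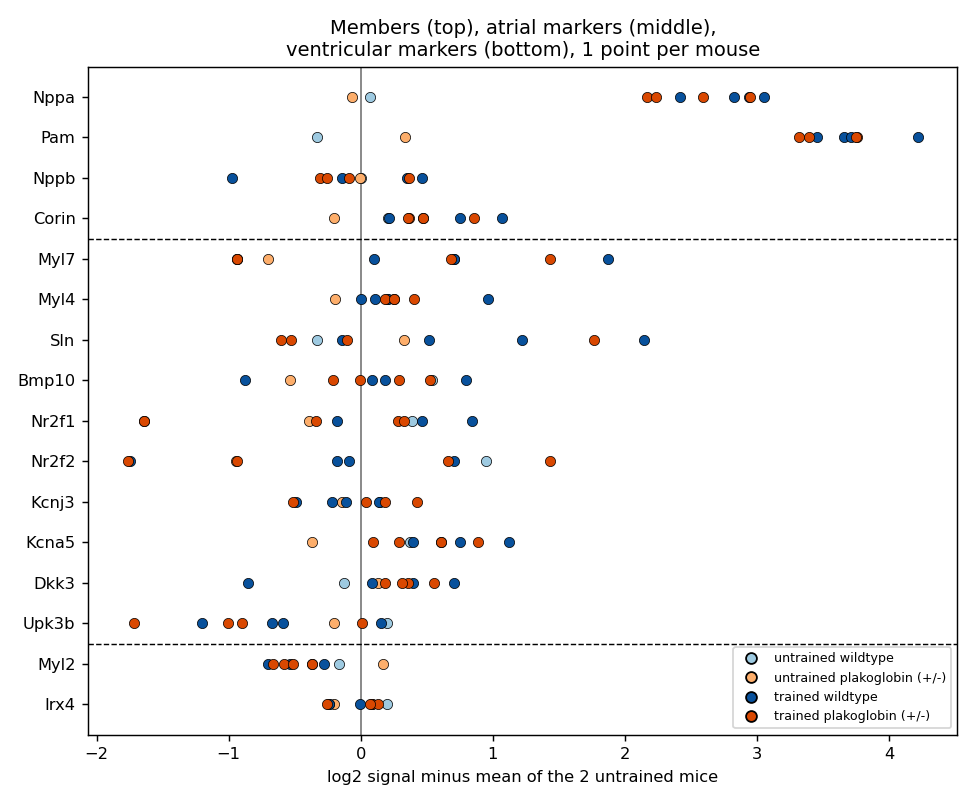
Log2 signal of each of the 10 mice minus the mean of the 2 untrained mice (horizontal axis) for 4 members (top), the 10 atrial markers on the array (middle) and the ventricular markers Myl2 and Irx4 (bottom); colours mark the 4 groups. Nppa and Pam are higher in all 8 trained mice than in both untrained mice, while the ranges of the defining atrial markers Myl7, Myl4, Sln and Bmp10 overlap between trained and untrained mice.

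The genes that process or break down the peptides gave no call between trained and untrained mice. Their list also held Nppc and Ostn, further ligands of the receptors. Of 9 listed, 8 were on the array and 6 were tested, with 5 higher, 1 lower, 0 called and a median of 0.31. Ostn was not on the array. Nppc, which encodes the precursor of C-type natriuretic peptide, was under the brightness filter. Its signal was 79 to 1429 in trained mice, with 1 of 8 under the floor, and 147 and 193 in untrained mice. Furin, a proprotein convertase that can cleave the Nppb precursor, had signals of 3111 to 4380 in trained mice and 2140 and 2736 in untrained mice, and its difference was 0.59 on the log2 scale (SE 0.22, limma adjusted p = 0.431). Mme, the protease neprilysin that degrades natriuretic peptides, was 602.6 to 1103 against 555.1 and 581.1 (0.59, SE 0.40). Pcsk6, the convertase known to activate Corin, was 1658 to 2914 in trained mice and 4118 and 4276 in untrained mice (-0.86, SE 0.26, adjusted p = 0.285). The 8 trained mice lay above the untrained pair for Furin and Mme and below it for Pcsk6. Such a separation, in either direction, was present in 9.24% of all tested probe sets. None of the 3 genes passed the test, and they were named for their large changes. Ece1, an endothelin-converting enzyme, was at 0.44 (SE 0.32), and at 0.17 without trained wildtype mouse 2.

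Of 17 listed genes of the cGMP pathway, 15 were on the array and 9 were tested. Among those 9, 5 were higher and 4 lower, 0 were called, and the median was 0.01. The list included subunits of the nitric oxide-sensitive cyclase, which is not downstream of the natriuretic peptide receptors. Gucy1a1, a subunit of the nitric oxide-sensitive cyclase, was 969.1 to 1341 in trained mice and 1862 and 1950 in untrained mice, a difference of -0.76 (SE 0.27, limma adjusted p = 0.416). Its other probe set was at -1.56. Pde2a, a cGMP-stimulated phosphodiesterase, was at -1.42 (SE 0.73) and at -0.61 without trained wildtype mouse 2, whose signal was 222.5. Vasp, a substrate of cGMP-dependent kinase, was at -0.92 (SE 0.38), and at -0.58 without trained wildtype mouse 2. Kcnmb1, a subunit of the calcium-activated potassium channel, was at 1.22 and changed sign to -0.55 without the untrained wildtype mouse.

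Among the 22 listed regulators of natriuretic peptide genes, 19 were tested, 9 were higher and 10 lower, and the median was -0.00. Myocd, the coactivator of serum response factor that drives cardiac and smooth muscle genes, was the only one that passed the test. This list was chosen with earlier results of these data known, which bears on that call. The signals of Myocd were 2681 and 1956 in the untrained wildtype and plakoglobin (+/-) mice, 4462, 5084, 4479 and 8505 in trained wildtype mice 1 to 4, and 4444, 4827, 5191 and 5654 in trained plakoglobin (+/-) mice 1 to 4. All 8 trained mice were above both untrained mice, as in 4.63% of all tested probe sets. The difference was 1.38 on the log2 scale (SE 0.24, limma adjusted p = 0.0274), beside 0.273% of all probe sets called higher and 0.354% called lower. A further probe set of Myocd was at -0.52 (SE 0.79), so it did not repeat the rise but was too imprecise to show a fall.

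The Myocd call rested on single mice and settings. The adjusted p was 0.129 without the untrained wildtype and 0.436 without the untrained plakoglobin (+/-) mouse, 0.0765, 0.0932 and 0.0631 without trained plakoglobin (+/-) mouse 3, plakoglobin (+/-) mouse 4 and wildtype mouse 4, 0.0572 with no sex term, 0.0638 with no brightness filter and 0.0585 with no intensity trend. Over all alternatives it ranged from 0.00366 to 0.436. Zfpm2, a cofactor of GATA4, was 2005 to 6258 in trained mice and 1723 and 2086 in untrained mice (1.18, SE 0.29, adjusted p = 0.156), and its other probe set was at 0.25. Srf, the partner of Myocd, was at 0.67 (SE 0.29) with its other probe set at -0.55, and Hand1 was at 0.61 and at -0.26 without the untrained wildtype mouse. At an unadjusted p under 0.05, 3 of the 19 regulators passed (Myocd, Zfpm2 and Srf), against 8.68% of all probe sets.

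Pam is a granule protein, and a list was made of other granule genes and of amidated peptides. Receptor genes of these peptides and genes of proteins that bind the Pam tail were also in it. Of 23 genes, 19 were on the array and 9 were tested, with 6 higher, 3 lower, 0 called and a median of 0.07. Those tested were Cpe, Adm and Npy, the receptor genes Calcrl, Ramp1, Ramp2 and Ramp3, and the tail-binding Kalrn and Uhmk1. The granule genes Chga, Chgb, Scg2, Scg3, Scg5 and Pcsk1 were under the brightness filter. Uhmk1, a kinase that binds the Pam tail, was 674.6 to 1387 in trained mice and 1484 and 1525 in untrained mice, at -0.47 (SE 0.36), and at -0.30 without trained wildtype mouse 4. Its other tested probe sets were at -0.29 (SE 0.37) and 0.30 (SE 0.40), so no direction can be read from them. Adm, the precursor of the amidated vasodilator adrenomedullin, was at 0.36 (SE 0.51), Ramp3, a receptor partner for it, at 0.31 (SE 0.40) and Npy, an amidated neuropeptide, at -0.25 (SE 0.90). Cpe, the carboxypeptidase that trims peptides before amidation, was at 0.07 (SE 0.31) in its brightest probe set. A further probe set of Cpe was at 2.35 (SE 0.58, limma adjusted p = 0.156), so its probe sets disagreed; it is named after its values were seen.

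Genes known to rise with ventricular load were mixed as well. Of 10 listed, 8 were tested, among them the member Nppb. The other 7 had 2 higher, 5 lower, 0 called and a median of -0.09. Myh7, the slow myosin heavy chain re-expressed in hypertrophy, was 4796 to 31249 in trained mice and 3887 and 4627 in untrained mice. All 8 trained mice were higher, as in 4.63% of all tested probe sets. The difference was 1.27 on the log2 scale (SE 0.60, limma adjusted p = 0.594), and 0.66 without trained plakoglobin (+/-) mouse 4, the highest. Acta1, skeletal alpha-actin, was at -0.50 (SE 0.29), and at -0.88 without the untrained wildtype and -0.13 without the untrained plakoglobin (+/-) mouse. Rcan1, a calcineurin regulator, was at -0.33 (SE 0.27) and 0.14 without the untrained wildtype mouse, with its other probe set at -1.26 (SE 1.43). No gene of the 5 pathway lists was called for genotype, sex or genotype by training, beside 0%, 0.0516% and 0% of all tested probe sets.

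**Figure D5:**
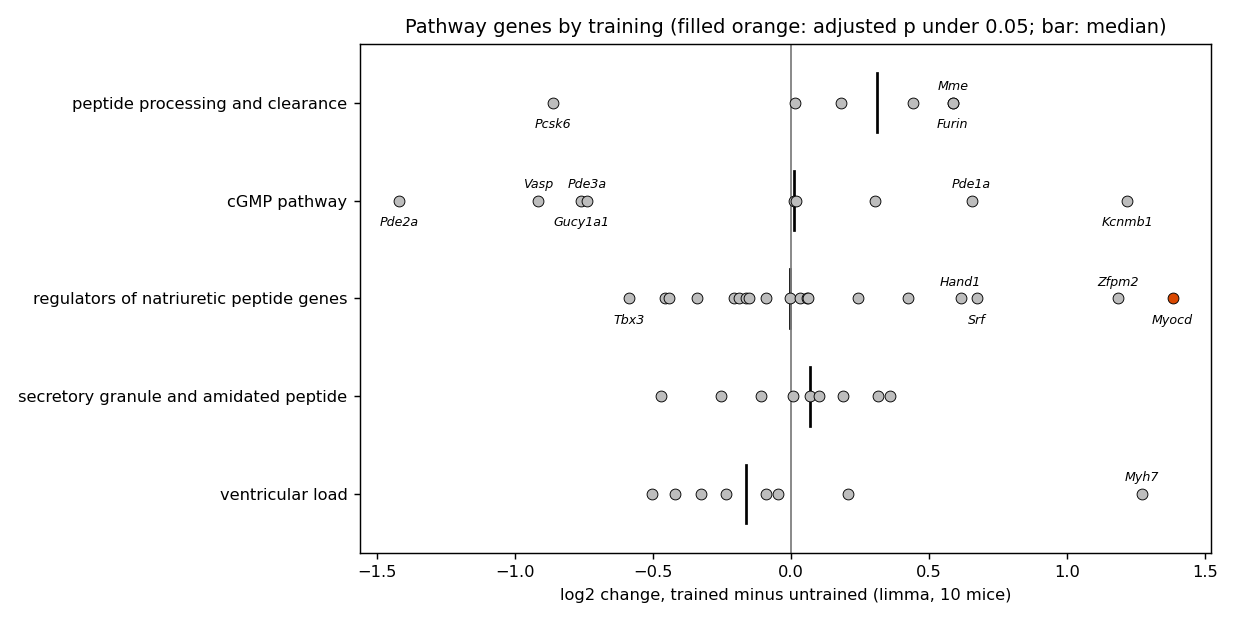
Differences of trained from untrained mice on the log2 scale (horizontal axis; 1 point per tested gene, by list; vertical bars mark each list's median, orange an adjusted p under 0.05) for genes of the natriuretic peptide pathway and its regulators. The list medians lie between -0.16 (ventricular load, Nppb included) and 0.31 (processing and clearance), and Myocd at 1.38 is the gene that passed the adjusted threshold.

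Across the 8 trained mice the genes whose log2 signals were most like Nppa, by Pearson r over 8364 other genes, were Actn2 (0.954), Mad2l1bp (0.953), Krt12 (0.947), Hk1 (0.928) and Nol3 (0.928). Those most like Nppb were Pus1 (0.977), Nlrx1 (0.975), Cdca4 (0.973), Spry1 (0.972) and Psmd4 (0.964), and those most like Pam were Mrps35 (0.990), Gorasp2 (0.955), 1600014C10Rik (0.954), Clasp1 (0.939) and Cap2 (0.932). The 3 sets held no gene in common, which is no result about the members, since each set is only the few highest of 8364 genes. Nppa and Pam, which both stood apart in the trained mice, had an r of -0.0495 among them, and 4472 of 8364 genes had a higher r with Nppa. Nppb and Corin had an r of -0.555, and 7625 of 8364 genes had a higher r with Nppb. In these same mice the sex differences of Nppb and Corin were 0.69 and -0.44 on the log2 scale, in opposite directions. The r values describe 8 arrays that share both genotypes and both sexes, with no test.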

How the data were processed

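Right ventricular RNA of 10 mice was hybridised to 1 Affymetrix array each. The deposited values are linear intensity signals for 22690 probe sets, made by the authors with MAS5 5.0 per the submitters' processing notes. No genome build or detection call was given in the sources used here. Gene symbols came from the platform annotation.

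Signals were raised to a floor of 104 (10th percentile of all deposited values) and log2 transformed. The 64 controls were left out, and a filter on brightness (mean log2 signal not under the 40th percentile) kept 13576 probe sets for testing. For genes other than the members the brightest probe set was used. Models were fitted with limma 3.58.1 (lmFit, eBayes with intensity trend) in R 4.3.3, two-sided, with Benjamini-Hochberg adjustment over all tested probe sets and a threshold of 0.05. Genotype and sex were fitted together in the 8 trained mice, and training over all 10 mice, adjusted for genotype and for sex, with genotype by training added in a further fit. Exact permutation tests used scipy 1.17.1. The procedure was tested on simulated data.

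Mice were grouped by the labels, and their numbers are only names. Nothing in the labels gives an array batch, but the title numbers of both untrained mice lie far above those of all trained mice. What these numbers stand for is not stated, so a difference in handling could not be told apart from training. The number of arrays limits the precision. The members and lists were chosen with earlier results of these data known. Named genes were all member probe sets, every gene of a list past the threshold in the training fit with up to 4 of the largest changes, and the 5 genes most like Nppa, Nppb and Pam; cell type markers were named from their own list. Promoter sequences were read from RefSeq.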

Additional observations from a re-analysis of the deposited data

How the results depend on the processing

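Quantile normalization, other floors, no filter, no intensity trend, no sex term, females only, leaving out the 3 arrays with a raised GAPDH ratio, and leaving out each mouse in turn were tried. No paired analysis was possible because littermates are not identified in the labels and the replicate numbers are only names. Probe sets called for training numbered 85, 225 without the 3 arrays, and 10 to 87 with 1 mouse left out, the lowest when the untrained plakoglobin (+/-) mouse was left out and 34 when the untrained wildtype one was. Calls by sex numbered 7, 13 with quantile normalization, 15 with the floor at the 25th percentile, 2 with no filter, 1 with no trend, 17 without the 3 arrays and 1 to 12 with 1 mouse left out. Genotype by training gave 0, 1 with quantile normalization, 66 with no filter, 1 without the 3 arrays and 0 to 1 with 1 mouse left out; it could not be estimated without an untrained mouse. Genotype gave 0 by limma under every alternative run, with 172 to 888 at an unadjusted p under 0.05. On the log2 scale the sign turned for the genotype difference of Corin (0.014 without the 3 arrays), for the sex difference of Nppa (0.012 with quantile normalization) and Npr2 (0.051 without the 3 arrays), for Npy with training (0.55 without the 3 arrays), and for training in Npr3 1435184_at (-0.22 with no sex term, -0.012 without the 3 arrays) and Npr2 (-0.0060 without the 3 arrays). With 1 mouse left out, the genotype difference ran from -0.22 to 0.15 for Nppb, -0.44 to 0.0085 for Npr3 1435184_at, -0.50 to -0.20 for Nppa, -0.32 to -0.058 for Pam, -0.19 to -0.0087 for Corin and -0.26 to -0.12 for Npr2, and the sex difference from -0.20 to 0.15 for Nppa, -0.094 to 0.045 for Npr2, -0.31 to -0.035 for Pam and -0.80 to -0.33 for Npr3 1435184_at. Training differences ran from -0.55 to 2.99 for Kcnmb1, -0.26 to 1.49 for Hand1, -0.058 to 0.78 for Adm, -0.33 to 0.96 for Ramp3, -0.93 to 0.56 for Npy, -0.79 to 0.14 for Rcan1, -0.060 to 0.17 for Npr3 1435184_at and -0.0016 to 0.14 for Npr2. Those of Nppa (2.50 to 2.81), Pam (3.32 to 4.18) and Corin (0.64 to 0.94) kept their sign. Signals of Npr1 and the dimmer Npr3 probe sets near the floor limit what can be read from them.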

Other observations

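The summed signal of the listed regulators of natriuretic peptide genes was 75925 to 82169 in the 4 trained males and 85683 to 94753 in the 4 trained females, and 76420 and 77611 in the untrained females. Of the 19 tested regulators, 9 were higher and 10 lower in males and 0 were called, with a median difference of -0.09 on the log2 scale. The sum is linear and weighted to bright genes such as Mef2a (male minus female -0.32, SE 0.14) and Gata6 (-0.48, SE 0.20). The summed signal of every other list overlapped between trained males and females, so this list was picked out of all of them. Of single tested probe sets, 5.89% had trained males and females that did not overlap, which is not a share for list sums. Zfpm2 had the lowest p of the tested regulators (male minus female -0.84 on the log2 scale, SE 0.24, limma adjusted p = 0.496).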
